A study of Homo sapiens with 6 samples.

Results

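Genes that interferon switches on in many cell types were described in A549 cells after mitoxantrone. They are OAS1, ISG15, ISG20, BST2, LGALS3BP and TRIM22. The 6 were taken by symbol from the deposited table of genes that differed between treatments, where each has 1 row, so they are 6 of 4546 listed genes. A549 is an established line of human lung adenocarcinoma cells. Libraries of total RNA were sequenced from 3 samples that received DMSO, the solvent, at a 1/1000 dilution and from 3 samples that received 50 nM mitoxantrone for the same 48 hours. Mitoxantrone is an anthracenedione drug that traps DNA topoisomerase II on cut DNA. All samples came from the same line, and the labels name no other allele, agent or clone. The series title speaks of senescence that makes lung cancer cells immunogenic. The labels do not state that replicates came from separate cultures, so the spread behind each p-value may be technical.

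Interferons bind receptors at the cell surface, and JAK kinases then phosphorylate STAT proteins, which with IRF9 bind response elements in the promoters of interferon-stimulated genes. The products act at different steps against viruses. In cells with DNA damage the same genes can also be induced by interferon made by the damaged cells themselves, by IRF proteins acting directly, or, for a few of them, by p53. In lung epithelium these genes are part of the first defence against respiratory viruses.

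The element that STAT and IRF proteins recognise contains a pair of GAAA words. The promoters that follow are printed because they hold such a pair close to the start site, in genes that moved in opposite directions. Sequences are from RefSeq (GRCh38.p14), 5′ to 3′ on the strand of the gene, with the GAAA pair in capitals. Of the 6 genes, 5 had an entry in the promoter table, which runs from 250 bases before the annotated start to 50 bases after it. TRIM22 is the remaining gene. The ISG15 and ISG20 windows are shown whole, at chr1:1013247-1013546 (plus strand) and chr15:88638766-88639065 (plus strand). Shorter stretches around the pair are shown for BST2 (chr19:17405720-17405785, minus strand), LGALS3BP (chr17:78979947-78980006, minus strand) and OAS1 (chr12:112906920-112906978, plus strand).
ISG15: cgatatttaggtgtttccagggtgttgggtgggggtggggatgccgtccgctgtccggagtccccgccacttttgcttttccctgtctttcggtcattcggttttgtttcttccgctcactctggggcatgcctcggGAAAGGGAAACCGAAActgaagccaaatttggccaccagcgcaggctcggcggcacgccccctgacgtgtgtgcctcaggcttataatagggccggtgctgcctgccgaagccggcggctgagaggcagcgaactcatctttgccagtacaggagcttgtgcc
ISG20: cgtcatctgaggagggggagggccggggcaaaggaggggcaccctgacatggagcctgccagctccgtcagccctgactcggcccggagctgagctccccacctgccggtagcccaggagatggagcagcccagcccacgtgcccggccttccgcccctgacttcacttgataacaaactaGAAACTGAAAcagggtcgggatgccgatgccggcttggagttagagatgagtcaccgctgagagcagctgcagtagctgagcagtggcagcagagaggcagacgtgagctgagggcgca
BST2: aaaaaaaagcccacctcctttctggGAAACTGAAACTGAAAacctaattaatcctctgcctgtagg
LGALS3BP: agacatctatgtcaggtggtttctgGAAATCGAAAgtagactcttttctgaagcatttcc
OAS1: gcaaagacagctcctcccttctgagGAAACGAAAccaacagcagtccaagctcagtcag

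Searched on either strand, a GAAA pair with any 2 bases between, the core of the interferon-stimulated response element, was found in 4 of the 5 promoters and in 3.65% of all 27305 promoters of the same length. The genes were taken by name as interferon-stimulated genes, so this share describes that choice and not the treatment. In ISG15 a pair of overlapping matches began 113 and 107 bases before the start, and in BST2 130 and 124 bases before it. ISG20 had 1 match at 69 bases and LGALS3BP 1 match at 58 bases before the start. OAS1 had none of this spacing. It held a GAAA pair with 1 base between, 17 bases before the start, a form found in 3.22% of all promoters and searched for only after the OAS1 sequence had been seen. The gamma-activated site (TTC and GAA with any 3 bases between) was found in OAS1 and BST2 and in 7.88% of all promoters. One of the BST2 matches overlapped the GAAA pair. The p53 consensus decamer was found in ISG15, 126 bases before the start, and in 6.54% of all promoters. ISG20, the member that was lower with mitoxantrone, had the same GAAACTGAAA letters as BST2, which was higher but from very few reads. A match is a description of the letters and not a bound site.

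**Figure D1:**
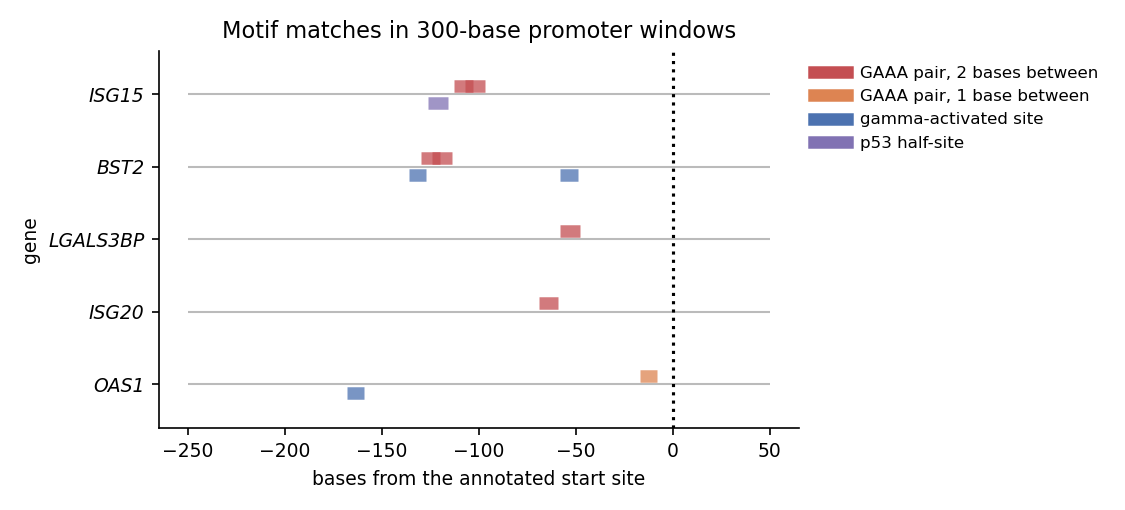
Positions of motif matches in the promoter windows of 5 genes, in bases from the annotated start site (dotted line); each grey line is the 300-base window and each coloured bar a match. The GAAA pairs lie between 130 and 17 bases before the start in all 5 genes.

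Library totals recovered from the deposited values ranged from 20380674 to 21781220 reads with DMSO and from 16681380 to 19352443 with mitoxantrone. Of the 12 markers of lung epithelial lines 5 were listed, all higher with mitoxantrone. Their summed normalized counts were 94975 to 110044 with DMSO and 295308 to 319018 with mitoxantrone. Of 14 leukocyte markers 3 were listed (ITGAX, CD14 and CD8A), and their summed normalized counts were 41.8 to 56.9 with DMSO and 252 to 258 with mitoxantrone. PTPRC, the defining leukocyte gene, was not listed, which does not say whether it was expressed. Of 8 fibroblast markers 2 were listed, with sums of 618 to 674 and 306 to 391, but they went opposite ways: COL1A1 was lower (620 ± 38.9 to 267 ± 34.0) and THY1 higher (31.4 ± 10.7 to 75.4 ± 11.4). Of 5 endothelial markers 3 were listed, with sums of 0 to 2.59 and 17.3 to 25.4. The part of these markers in the results that follow was not tested.

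With mitoxantrone 5 of the 6 genes were higher and ISG20 was lower. TRIM22 moved most, 65.1-fold, OAS1 6.57-fold, BST2 4.46-fold from very few reads, ISG15 4.36-fold and LGALS3BP 4.17-fold, while ISG20 was 2.19-fold lower. In RNA of whole cultures, fewer cells with a transcript and less of it per cell cannot be told apart. The groups did not overlap in any of the 6, as in 98.3% of all listed genes. All 6 had an adjusted p under 0.05 by edgeR's quasi-likelihood test, but so did 100% of the listed genes, which the authors had selected on these same libraries at an absolute log2 fold change of 1 or more. A call of higher was made for 58.9% of the listed genes and of lower for 41.1%. The listing itself was rarer, at 20.5% of about 22200 genes that the authors are estimated to have tested, and the members were chosen from among the listed genes. The median log2 fold change of the 6 was 2.11, against 1.20 over all listed genes, and in absolute size, which sets aside direction, 2.11 against 1.70.

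**Figure D2:**
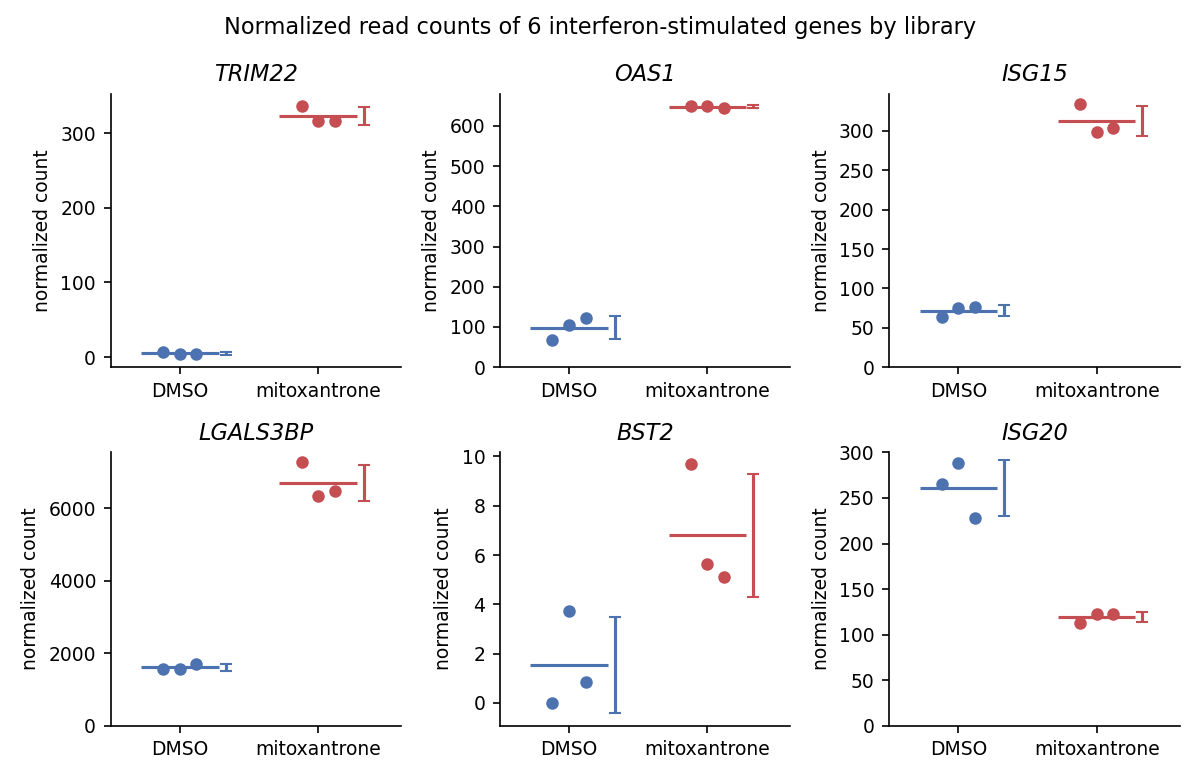
Normalized read counts (reads divided by the library's size factor) of the 6 genes in each library; points are libraries, horizontal lines group means and bars the SD (n = 3 per group), with a separate vertical scale for each gene. Both groups separate in every panel, with the narrowest gap in BST2, and only ISG20 is lower with mitoxantrone.

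TRIM22 encodes a RING-finger protein of the tripartite motif family that restricts several viruses and is known as a target of both interferon and p53. In normalized counts (reads divided by the size factor of the library) it stood at 6.86, 3.72 and 4.31 in DMSO 1 to 3. The mitoxantrone libraries had 336, 316 and 316. The gene was thus close to absent in every DMSO library and well measured in every mitoxantrone library, and the lowest treated value was 46.1 times the highest control value. From 17 reads over the DMSO libraries and 868 over the mitoxantrone libraries, the scaled ratio was 64.5, and its exact 95% interval ran from 40.1 to 111, for counting error only. The log2 fold change was 5.98 ± 0.21 (SE; edgeR, adjusted p = 1.2e-26), and only 21 listed genes were above it. The authors' deposited table gives 5.63 ± 0.31 for it. TRIM22 (ENSG00000132274) lies at 5710919 to 5758319 on chromosome 11, plus strand, in the deposited table, which names no genome build. In GENCODE 29 the gene TRIM5, on the opposite strand, overlaps all 47401 bases of the TRIM22 span given there. TRIM5 was not listed. The labels do not say that counting used strand, and whether both genes share exons or reads was not tested.

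OAS1 encodes an oligoadenylate synthetase, which senses double-stranded RNA and makes short oligoadenylates as a messenger. It had 68.6, 105 and 122 normalized counts in DMSO 1 to 3 and 651, 649 and 644 in mitoxantrone 1 to 3. The DMSO libraries differed from each other while the mitoxantrone libraries were almost equal. The coefficient of variation was 27.8% with DMSO, where counting error alone gives 9.46%, and 0.57% with mitoxantrone, where counting alone gives 4.15%. The rise from 98.7 ± 27.5 to 648 ± 3.70 (SD, n = 3) was a log2 fold change of 2.72 ± 0.13 (SE; edgeR, adjusted p = 9.5e-23). Without any 1 library it stayed between 2.51 and 2.91. OAS1 (ENSG00000089127) lies at 113344582 to 113369990 on chromosome 12, plus strand, in the deposited table. In GENCODE 29, where OAS1 is given a span of 26446 bases, a gene of the opposite strand, AC004551.1, covers 25595 of them. The adjoining family members OAS3 and OAS2 were not listed, which does not mean that they were unchanged.

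ISG15 encodes a ubiquitin-like protein that is joined to other proteins during the interferon response and is also secreted. Its normalized counts were 63.4, 75.2 and 75.9 in the DMSO libraries. The mitoxantrone libraries gave 334, 299 and 303. Each group was tight, with coefficients of variation of 9.78% and 6.10% against 11.1% and 5.98% from counting alone. The log2 fold change was 2.12 ± 0.13 (SE; edgeR, adjusted p = 2.2e-18), and the authors' deposited table gives 2.10. ISG15 (ENSG00000187608; 948803 to 949920 on chromosome 1, plus strand, in the deposited table) has 711 listed bases, the shortest of the 6. GENCODE 29 gives it a longer span of 13403 bases, of which the opposite-strand genes AL645608.1 and AL645608.3 overlap 1197 and 154. Whether these lie within the deposited span was not tested.

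LGALS3BP encodes a secreted glycoprotein that binds galectins and was first known as a tumour antigen; it is raised by interferons and viral infection. It was the most abundant of the 6, with 1554, 1559 and 1702 normalized counts in the DMSO libraries. With mitoxantrone it had 7258, 6319 and 6481. Mitoxantrone 1 was the highest, and the lowest treated library was 3.71 times the highest control library. The depth was ample, with 5464 and 17951 reads over the groups, and the log2 fold change of 2.06 ± 0.07 (SE; edgeR, adjusted p = 1.5e-27) had the smallest error of the 6. LGALS3BP (ENSG00000108679) lies at 76967320 to 76976191 on chromosome 17, minus strand, in the deposited table, and no GENCODE 29 gene overlaps it.

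BST2 encodes tetherin, a membrane protein that holds budding virus particles at the cell surface. Its reads were too few for a firm value: 0, 4 and 1 in DMSO 1 to 3 and 8, 5 and 5 in mitoxantrone 1 to 3. In normalized counts this was 0, 3.72 and 0.862 against 9.68, 5.64 and 5.10. A count of 0 in DMSO 1 allows up to 3 reads, or 2.57 normalized counts. The groups did not overlap, but DMSO 2 and mitoxantrone 3 differed by 1 read before scaling. From 5 and 18 reads in all, the ratio was 4.55 with an exact 95% interval of 1.63 to 15.7 (counting error only). The log2 fold change was 2.10 ± 0.78 (SE; edgeR, adjusted p = 0.011), and the call was lost without DMSO 1 (1.53, adjusted p = 0.060) or without mitoxantrone 1 (1.78, adjusted p = 0.054). In the authors' deposited table BST2 has 1.41 ± 0.63 with an adjusted p of 0.048, just inside the limit. BST2 (ENSG00000130303) lies at 17513748 to 17516457 on chromosome 19, minus strand, in the deposited table.

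ISG20 encodes an exonuclease that degrades single-stranded RNA and is induced by interferon and by oestrogen. It went the other way, from 266, 289 and 228 normalized counts in DMSO 1 to 3 to 113, 123 and 122 in mitoxantrone 1 to 3. Every treated library was below every control library, and the lowest control was 1.86 times the highest treated value. The log2 fold change was -1.13 ± 0.13 (SE; edgeR, adjusted p = 1.5e-10), from 261 ± 30.5 to 119 ± 5.91 (SD, n = 3). It lay close to the authors' limit of 1, and 88.2% of the listed genes had a larger absolute change. ISG20 (ENSG00000172183) lies at 89179384 to 89199714 on chromosome 15, plus strand, in the deposited table.

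**Figure D3:**
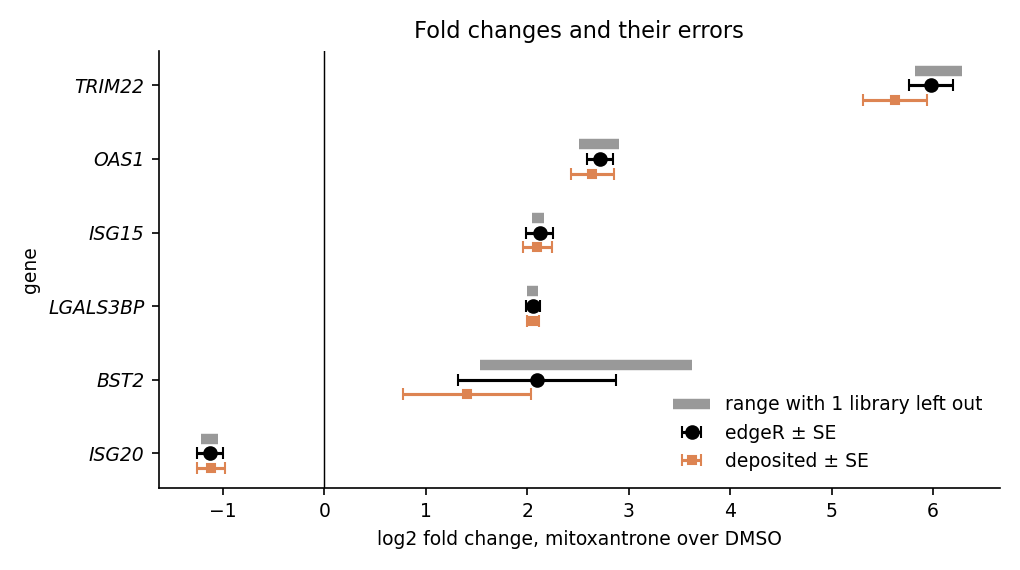
Log2 fold changes of mitoxantrone over DMSO for the 6 genes: edgeR estimates with their SE (black), the deposited values with their SE (orange) and the range when 1 library is left out (grey). BST2 has the widest range, from 1.53 to 3.62, and no range crosses 0.

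Of the 36 nearest protein-coding genes in GENCODE 29 (3 on each side of each member) 14 were listed, 11 higher and 3 lower. Genes that overlap a member, such as TRIM5, were not counted as neighbours. For comparison, 20.5% of the genes that the authors are estimated to have tested, of any type, were listed. Of all listed genes 58.9% were called higher. The neighbours were looked up after values were seen, and whether they moved together with the members was not tested. Around ISG20, itself lower, 4 of 6 were listed: ACAN, HAPLN3 and MFGE8, on its downstream side, were higher (log2 fold changes of 4.67, 2.10 and 2.09) and DET1, upstream, was lower (-1.20). AEN, a related exonuclease gene that adjoins ISG20 upstream and is a known p53 target, was not listed. Around LGALS3BP 5 of 6 were listed, of which TIMP2 (1.12), CEP295NL (1.93), C1QTNF1 (1.21) and ENGASE (1.22) were higher and USP36 lower (-1.01). ISG15 had HES4 at -2.35 and AGRN at 1.12, OAS1 had RPH3A at 1.44 and DTX1 at 1.80, TRIM22 had TRIM34 at 1.76, and none of the 6 around BST2 was listed.

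Tests against larger changes gave different outcomes among the 6. The authors had selected the listed genes on these same libraries at an absolute log2 fold change of 1 or more. That selection favours passing, so these outcomes are a description and not independent evidence. Against a 2-fold change (glmTreat in edgeR) 5 of the 6 passed, all higher, where 48.5% of the listed genes passed as higher. Of these BST2 passed narrowly (glmTreat, adjusted p = 0.038). Its exact 95% interval for counting error, 1.63 to 15.7, includes 2-fold, so a change above 2-fold is not firm for BST2. ISG20 did not pass (adjusted p = 0.071), where 32.1% of the listed genes passed as lower. Against a 4-fold change OAS1 and TRIM22 passed, where 12.6% of the listed genes passed as higher. ISG15 (adjusted p = 0.22), LGALS3BP (0.23) and BST2 (0.52) did not, although the ratio of means of each was above 4.

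Levels per gene length, in FPKM (fragments per unit of listed gene length and library total, by the authors), set the members in a different order in each group. With DMSO the order was LGALS3BP at 23.9 ± 1.39, ISG15 at 5.37 ± 0.51, ISG20 at 1.89 ± 0.20, OAS1 at 1.35 ± 0.38, BST2 at 0.073 ± 0.095 and TRIM22 at 0.043 ± 0.015 (SD, n = 3). ISG20 and OAS1 overlapped between libraries, as did BST2 and TRIM22, so their order is not beyond the spread. The order between genes also rests on the listed lengths, 7363 bases for ISG20 and 711 for ISG15. In normalized counts with DMSO, ISG20 stood above ISG15 (261 against 71.5). Whether the listed lengths match the transcripts in these cells was not tested. With mitoxantrone the order was LGALS3BP at 93.8 ± 5.84, ISG15 at 22.1 ± 1.06, OAS1 at 8.33 ± 0.08, TRIM22 at 2.70 ± 0.06, ISG20 at 0.82 ± 0.05 and BST2 at 0.31 ± 0.11. No neighbours overlapped in this group. TRIM22, the gene with the largest fold change, thus reached a level 34.8-fold below that of LGALS3BP. LGALS3BP made up 71.2% to 75.1% of the summed FPKM of the 6 genes in the DMSO libraries and 72.7% to 73.9% in the mitoxantrone libraries, where the sum rose from a range of 30.9 to 34.7 to one of 123 to 136.

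**Figure D4:**
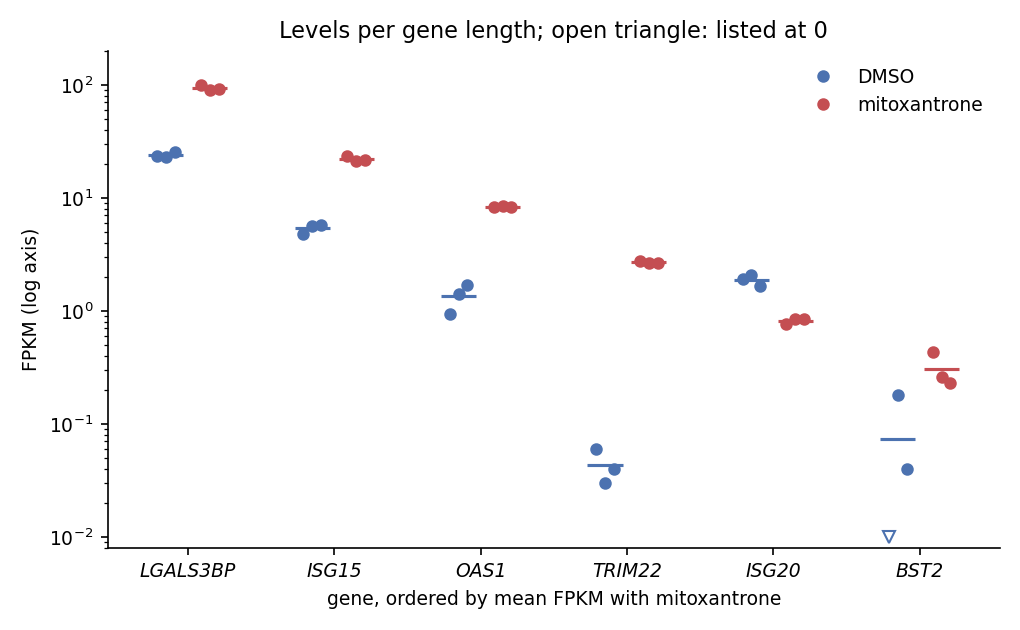
FPKM of the 6 genes in each library on a log axis; points are libraries, lines group means, and the open triangle marks BST2 in DMSO 1, listed at 0. LGALS3BP and ISG15 lead in both groups, and TRIM22 goes from the lowest mean with DMSO to the fourth with mitoxantrone.

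The annotation in the deposited table gives 5 of the 6 genes the term defense response to virus, which 39 listed genes carry, 29 of them higher and 10 lower. LGALS3BP is the gene without it. The term type I interferon signaling pathway is carried by OAS1, ISG15 and ISG20, and by 16 listed genes in all (12 higher, 4 lower). Both counts include the members that carry the term. Of all listed genes 58.9% were called higher, and neither term was tested.

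The genes most like each member over the 6 libraries were found by the root mean square difference of log2(normalized count + 1) after subtraction of each gene's mean, among 3610 listed genes with a mean of at least 10. With only 2 groups this measure mostly reflects the size of the change. For TRIM22 they were SLC52A1 (0.057) and CYGB (0.28), for OAS1 CFB, complement factor B (0.12), and GPR153 (0.13). For ISG15 they were S100A4 (0.036) and BAIAP2-AS1 (0.041), for LGALS3BP WDR81 (0.030) and LFNG (0.036), and for ISG20 RPS10P7 (0.040) and CLASRP (0.050). The nearest to BST2 were ACP5 (0.34) and RP11-416I2.1 (0.34), farther off than the nearest genes of the other 5 members.

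Around the 6 genes, 152 further genes of the interferon pathway or related to single members were grouped by role, of which 40 were in the deposited table, 35 higher and 5 lower with mitoxantrone (edgeR, adjusted p under 0.05), with a median log2 fold change of 1.84. Listed genes were thus 26.3% of the lists, against the 20.5% of genes tested by the authors, and 87.5% of those listed were higher, against 58.9% of all listed genes; how many of the 152 the authors tested is not known here. The lists were chosen with earlier results of these data known, so these shares are a description and not independent evidence. Without the galectins, the partners of LGALS3BP and the exonucleases related to ISG20, 38 of 136 were listed, 33 higher and 5 lower. The other 112 of the 152 were not listed, and their levels are not known here. None of 10 interferon genes, which include IFNB1 and the lambda interferons, was listed. Of 11 genes for receptors, JAK kinases and STAT proteins 1 was listed, JAK2, which was lower at -1.02 (280 ± 21.0 to 137 ± 18.3 normalized counts). STAT2 and IRF9 were not listed. Of 8 interferon regulatory factors IRF8 alone was listed, lower at -2.62 from 41 and 5 reads over the groups.

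Of 17 sensors and adaptors 5 were listed, 4 of them higher. TMEM173, which encodes STING, had 2.70 (5.60 ± 1.15 to 37.1 ± 9.98), TLR3, the endosomal receptor of double-stranded RNA, 2.30, the DNA sensor gene IFI16 2.14 and the adaptor gene MYD88 1.89 (log2 fold changes). MB21D1, which encodes cGAS, was lower at -2.19 (284 ± 12.2 to 62.0 ± 13.1). Of the feedback list 3 of 9 were listed. SOCS3, an inhibitor of JAK signaling, was lower at -2.92 (2948 ± 381 to 391 ± 37.3), while NLRC5 was higher at 1.33 and the DNA exonuclease gene TREX1 at 1.01.

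The genes closest in function to single members were higher where listed, as were 58.9% of all listed genes. Most genes of these lists were not listed. Beside OAS1, OASL was at 2.51 (7.0 ± 3.65 to 40.9 ± 6.95), the 1 listed of 4 further OAS-related genes. Beside ISG15, UBA7, its activating enzyme, was at 4.07 (2.63 ± 0.80 to 46.3 ± 6.03) and UBE2L6, its conjugating enzyme, at 1.32 (312 ± 10.7 to 780 ± 54.1), 2 of 7. The ligase HERC5 and the deconjugating protease USP18 were not listed. Beside TRIM22, PML was at 2.02, TRIM34, which lies near it on the chromosome, at 1.76 and TRIM21 at 1.42, 3 of 13. Beside LGALS3BP, its ligand galectin-3, LGALS3, was at 1.50 (533 ± 8.31 to 1506 ± 85.7) and the tetraspanin gene CD82 at 4.55 (32.2 ± 7.83 to 755 ± 67.1), 2 of 11. None of 5 exonuclease genes related to ISG20 was listed.

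Of 59 other interferon-stimulated effectors 22 were listed, 21 higher and 1 lower. The largest rises were APOBEC3H, with 3 reads in all with DMSO and 60 with mitoxantrone (25.3-fold after scaling, exact 95% interval 8.24 to 126), IFIT1, which binds viral RNA, from 2.65 ± 0.86 to 58.8 ± 5.09 normalized counts (log2 fold change 4.41) and the guanylate-binding protein gene GBP2 from 11.9 ± 5.83 to 104 ± 14.2 (3.12). The gene that was lower was APOBEC3B, a cytidine deaminase gene, at -3.30 (181 ± 27.9 to 18.1 ± 4.97). Of the 40 listed genes of these lists 27 had a promoter entry. A GAAA pair with 2 bases between was present in 11 of the 24 that were higher and in 0 of the 3 that were lower. With only 3 lower genes the directions cannot be compared. Among the 3021 listed genes with an entry it was present in 2.62%, in 3.06% of the higher and 2.05% of the lower. The lists were made largely of known interferon genes, so this share describes the lists and not the treatment.

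**Figure D5:**
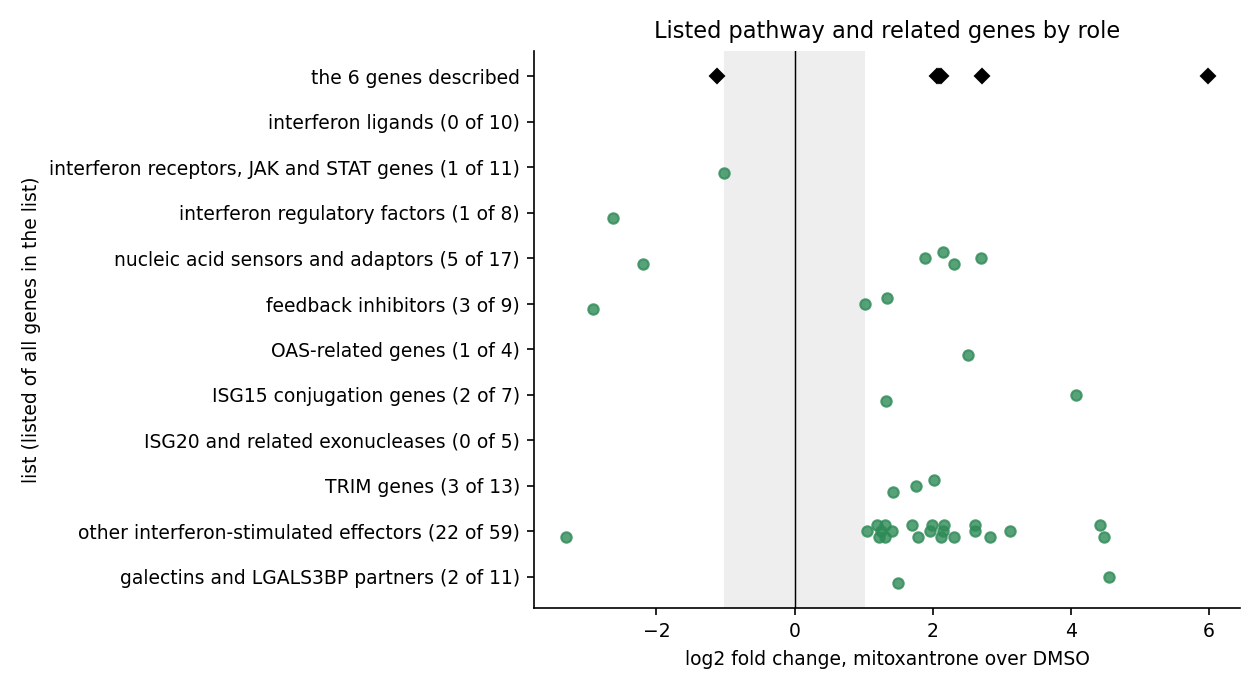
Log2 fold changes of the listed interferon pathway and related genes by role (green, 1 point per gene) and of the 6 genes described (black); the grey band marks changes under the authors' limit of 1. Most points lie to the right of the band, and the 5 to the left are JAK2, IRF8, MB21D1, SOCS3 and APOBEC3B.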

How the data were processed

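RNA of 3 DMSO and 3 mitoxantrone samples was compared; groups and replicate numbers come from the sample titles. Tools named in the submitters' processing notes are HISAT2 2.0.1, HTSeq 0.6.1, cutadapt 1.9.1, Cufflinks 2.2.1, SAMtools 0.1.19 and DESeq2. No genome build is given in the sources used here. Per the file headers, the deposited table holds raw counts of reads and FPKM per gene and library. The authors also deposited a mean normalized count, a signal value per gene that averages the counts divided by size factor over all 6 libraries. Further deposited columns are the log2 fold change with its SE, a score equal to their quotient, and a p-value, raw and adjusted. The table holds 4546 genes, with a smallest absolute log2 fold change of 1.00 and a largest adjusted p of 0.0497. A gene not listed may have changed by less or not been tested.

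The size factors were solved by least squares from counts and deposited means (largest relative residual 4.8e-10). The number of genes the authors tested was estimated from the ranks of the 20 smallest p-values above 0. The test was edgeR 4.0.16 (R 4.3.3), quasi-likelihood on the counts with these size factors, with no covariate and no filter, adjusted by Benjamini-Hochberg over the 4546 genes. SE is the log2 fold change divided by the square root of F. The test was also run on simulated counts in which most genes were left unchanged. In these data 100% of the listed genes were called, so that run does not show how the test behaves here. FPKM was tested with limma 3.58.1 as an alternative. Fold changes compare a gene with the rest of its library. Alternatives were other scalings, DESeq2 1.42.0, a count filter, larger tested changes, a replicate block and 1 library left out. The 6 genes and the pathway lists were chosen with earlier results of these data known. Of the lists, every listed gene was named where 6 or fewer were listed, otherwise the 3 largest changes in each direction. Some genes first placed in the lists are not reported here and were left out of every list count. The 2 nearest genes were named for each member. Neighbouring genes and the GAAA pair with 1 base between were looked up after values or sequences were seen.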

Additional observations from a re-analysis of the deposited data

How the results depend on the processing

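No direction of the 6 genes reversed under any alternative run, and 98 of 106 values also kept their side of the threshold. The authors had selected the listed genes on these same libraries, so kept directions and calls were likely beforehand and are not independent evidence. TMM on the listed genes moved every gene by about -0.26 on the log2 scale, library totals by -0.09 and column totals by -0.07. Against a 4-fold change ISG15 (log2 fold change 2.12), LGALS3BP (2.06), BST2 (2.10) and ISG20 (-1.13) no longer passed, nor did ISG20 against a 2-fold change (-1.13), because the tested change is larger. The test against a 4-fold change took the calls over all listed genes from 2677 higher and 1869 lower to 573 and 364. It took those of the lists of pathway and related genes from 35 and 5 to 8 and 2. At an adjusted p of 0.01 BST2 (2.10) was not called. With DESeq2 its adjusted p was 0.049. With 1 library left out, log2 fold changes ran from 1.53 to 3.62 for BST2, where the call was lost in 2 of 6 fits, 5.82 to 6.28 for TRIM22, 2.51 to 2.91 for OAS1, 2.04 to 2.17 for ISG15, 2.00 to 2.10 for LGALS3BP and -1.21 to -1.05 for ISG20. In the same fits 2631 to 2668 listed genes were called higher and 1855 to 1866 lower. On log2(FPKM + 1), which compresses low values, TRIM22 had 1.82, BST2 0.28 and ISG20 -0.67 in limma, and on log2(FPKM + 0.1) 4.29, 1.34 and -1.11. The count filter of 10 reads in 3 samples and the FPKM filter leave BST2 out. The order of members by FPKM held in each mitoxantrone library and in DMSO 2; in DMSO 1 alone 4 genes and in DMSO 3 alone 2 genes kept their place. Deviations from the group means of libraries with the same number correlated at -0.07, -0.08 and 0.03 over 2622 genes, and with the replicate block the calls stayed at 2677 and 1869 and BST2 had 2.13 (adjusted p = 0.015). Depth limits BST2 (23 reads in all) and the DMSO level of TRIM22 (17 reads).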
